A study of Mus musculus with 10 samples.

Results

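The 6 Gata transcription factor genes, Gata1 to Gata6, were chosen by their symbols in the GENCODE annotation of mm9, where each was found once among 37273 genes on the autosomes and chromosomes X and Y. For each gene, the bases covered by H3K27me3 peaks were counted from 5 kb upstream of its first transcription start site (TSS) to its annotated end, in each of 5 lymphoma lines. H3K27me3, the trimethyl mark on lysine 27 of histone H3, had been mapped by ChIP-seq in B-cell lymphoma cells of C57BL/6J background that carry the Eμ-Myc transgene and lack Cdkn2a (Cdkn2a-/-). The parental line was not exposed to drug. The 4 resistant lines were derived from it under mafosfamide, which alkylates DNA, at doses of 100 nM (R100), 500 nM (R500), 1000 nM (R1000) and 4000 nM (R4000). They were taken after 10, 18, 23 and 37 days in culture, although another description of the experiment has a slightly shorter total. All 5 lines thus share the transgene and the Cdkn2a deletion, and the cells were grown without mafosfamide for the ChIP-seq. The Eμ enhancer drives Myc in cells of the B lineage, so the lines model a Myc-driven B-cell tumor. The resistant lines come from a single parental line and are not independent tumors.

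The data are 1 peak list per line, with the first and last base of each peak and no height, score or read count. The depth of the libraries is unknown, no spread between replicates can be given, and differences between lines were not tested. The values below are therefore descriptions of 5 lists. The lists held between 6820 and 25180 distinct peaks and covered 1.63 Mb in the parental line, 5.04 Mb for R100, 4.53 Mb for R500, 1.61 Mb for R1000 and 1.07 Mb for R4000. Peaks are in steps of 50 bp. The lists hold a histone mark and no RNA, so the labelled cell type could be looked at only through the mark. The share of all protein-coding genes with a covered base was 12.9% for the parental line and 34.3%, 27.2%, 16.1% and 14.0% for R100 to R4000, against which the marker counts are to be read. Of 9 B-cell marker genes, among them Cd79a and Pax5, none had a covered base in the parental line, while 5 had in R100 and 4, 3 and 2 in the next lines. Of the T-cell markers, 1 of 5 was covered in the parental line, 2 of 5 in R100, 3 of 5 in R500, none in R1000 and 1 in R4000. Of the erythroid and megakaryocyte markers, the numbers were 2, 3, 2, 1 and 2 of 5 in the same order, and none of 4 myeloid markers was covered in any line.

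GATA factors bind DNA through zinc fingers that read the short sequence from which the family takes its name. Gata1, Gata2 and Gata3 act in blood, in red cells and megakaryocytes, in stem and progenitor cells, and in T cells respectively, while Gata4, Gata5 and Gata6 act in heart and endoderm. H3K27me3 is laid down by polycomb repressive complex 2 (PRC2), is typical of silent developmental genes, and in mammals is found mainly at CpG islands, stretches of DNA rich in unmethylated CG dinucleotides.

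The RefSeq promoters of 4 members are printed because they differ in CG content, which is set beside the peaks further on. Each runs from 250 bases before the RefSeq TSS to 50 after it, 5′ to 3′ on the strand of the gene, and CG dinucleotides are in capitals. The sequences were taken from the RefSeq table for GRCm38.p6, and each matched NCBIM37 (mm9) at 1 place on its chromosome without a mismatch. The table matched 4 of the 6 members, with 2 promoters for Gata2 and 1 each for Gata1, Gata3 and Gata5. Gata4 and Gata6 had no entry.
Gata1, second TSS, mm9 chrX:7544987-7545286, minus strand: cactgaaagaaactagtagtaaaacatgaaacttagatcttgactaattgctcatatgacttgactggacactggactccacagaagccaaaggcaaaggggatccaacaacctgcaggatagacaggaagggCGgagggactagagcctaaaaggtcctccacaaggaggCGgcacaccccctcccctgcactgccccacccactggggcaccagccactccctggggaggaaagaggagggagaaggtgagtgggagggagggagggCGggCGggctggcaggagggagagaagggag
Gata2, first TSS, mm9 chr6:88143635-88143934, plus strand: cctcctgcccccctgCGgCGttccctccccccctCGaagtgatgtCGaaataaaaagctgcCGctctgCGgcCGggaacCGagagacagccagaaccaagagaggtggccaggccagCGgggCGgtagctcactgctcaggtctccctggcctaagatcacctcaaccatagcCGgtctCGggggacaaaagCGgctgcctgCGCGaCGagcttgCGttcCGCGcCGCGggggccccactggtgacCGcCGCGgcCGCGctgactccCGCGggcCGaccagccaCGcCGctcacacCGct
Gata3, second TSS, mm9 chr2:9800178-9800477, minus strand: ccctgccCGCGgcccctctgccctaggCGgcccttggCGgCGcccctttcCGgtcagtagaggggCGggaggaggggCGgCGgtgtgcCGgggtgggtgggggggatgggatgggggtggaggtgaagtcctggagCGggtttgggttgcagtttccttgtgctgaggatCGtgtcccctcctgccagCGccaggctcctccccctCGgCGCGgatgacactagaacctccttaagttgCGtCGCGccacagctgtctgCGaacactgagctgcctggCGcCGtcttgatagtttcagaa
Gata5, mm9 chr2:180069335-180069634, minus strand: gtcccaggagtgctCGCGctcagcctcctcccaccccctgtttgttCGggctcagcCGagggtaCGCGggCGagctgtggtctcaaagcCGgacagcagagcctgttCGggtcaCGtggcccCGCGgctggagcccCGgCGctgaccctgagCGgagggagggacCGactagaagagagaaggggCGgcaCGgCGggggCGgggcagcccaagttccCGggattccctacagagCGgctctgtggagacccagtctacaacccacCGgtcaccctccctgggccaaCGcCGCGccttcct
The Gata1 promoter held 4 CG dinucleotides, against 32 in the first Gata2 promoter, 22 in that of Gata3 and 26 in that of Gata5. The second Gata2 promoter, not printed, held 29. The median over 32851 RefSeq promoters of the same length was 7. Among protein-coding genes with such a promoter, 3832 had 0 to 4 CG dinucleotides, 5015 had 5 to 19 and 6117 had 20 or more. The sequence GATA with A or T before it and A or G after it, on either strand, occurred 1 time in the Gata3 promoter and in none of the other 4, while 29.8% of all the promoters held at least 1.

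The lines differed in how many Gata genes carried H3K27me3 and in how much of them was covered. In the parental line, 3 of 6 Gata genes had a covered base, against 12.9% of the 22367 protein-coding genes, and these were Gata2, Gata3 and Gata4. In R100, Gata5 and Gata6 were covered as well, so that 5 of 6 had a covered base, against 34.3% of protein-coding genes. The same 5 genes were covered in R500, against 27.2%, with Gata6 by a single peak of 50 bp. In R1000 and R4000 the covered genes were again Gata2, Gata3 and Gata4, which is 3 of 6 against 16.1% and 14.0% of protein-coding genes. A longer window is more likely to hold a peak, and the windows of the Gata genes spanned 14.6 to 77.8 kb.

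**Figure D1:**
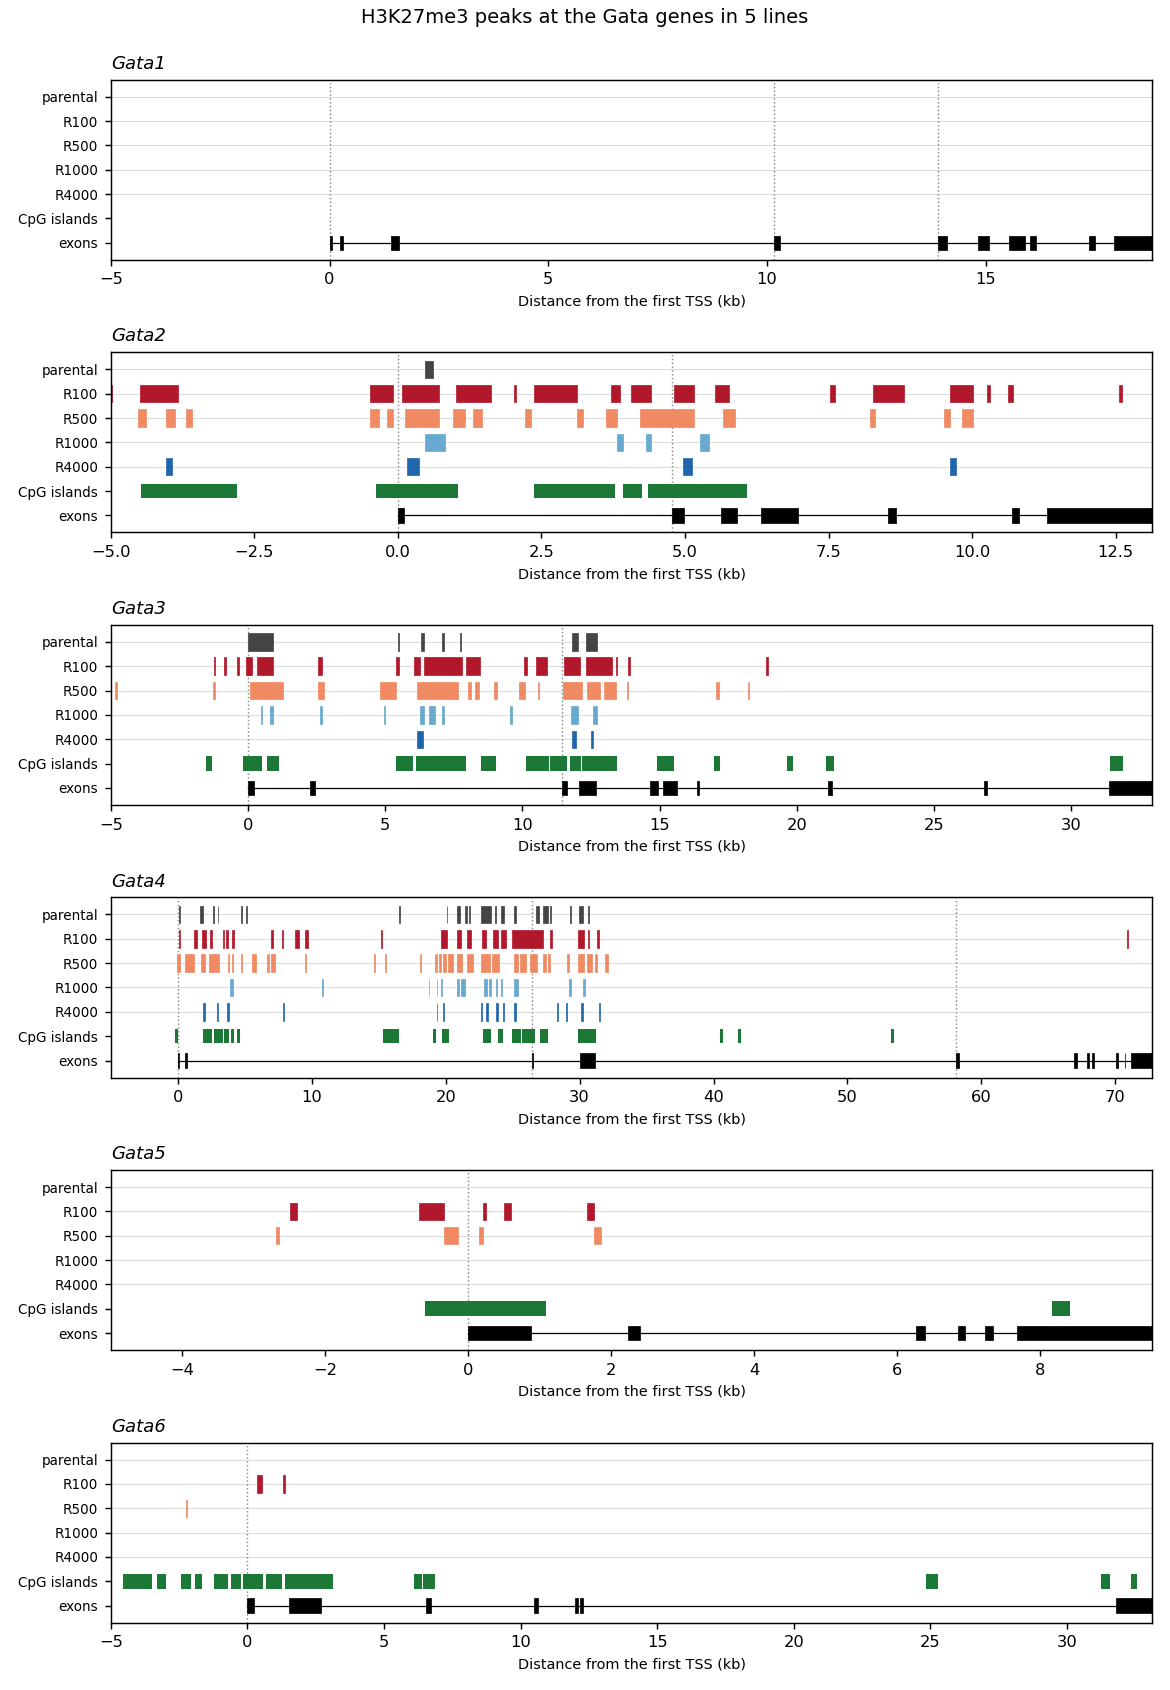
H3K27me3 peaks (boxes) at the 6 Gata genes in each of the 5 lines (rows), by distance from the first TSS in kb, with CpG islands in green, exons in black and dotted lines at the TSSs of coding transcripts. Gata1 has no peak in any line, Gata5 and Gata6 have peaks in R100 and R500 only, and in Gata4 the last peak ends 32128 bp into the gene, except for 1 further peak of 50 bp in R100.

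Summed over the 6 genes, peaks covered 5350 bp in the parental line, 19216 bp for R100, 19150 bp for R500, 3950 bp for R1000 and 2300 bp for R4000. R100 and R500 had nearly the same sum, and both stood apart from the other 3 lines. They are also the lines whose lists enter each peak 2 times, which the lists of the other 3 lines do not. Distinct peaks were counted, and the part of this difference between the lists in the values was not tested. Relative to the parental line the sum was 3.59 times for R100, 3.58 times for R500, 0.738 times for R1000 and 0.430 times for R4000. The whole lists also differed, by 3.09, 2.78, 0.988 and 0.658 times the parental length. Per Mb covered in a list, the Gata genes held 3278 bp in the parental line, 3816 for R100, 4225 for R500, 2449 for R1000 and 2142 for R4000. On this scale each line stayed on the same side of the parental line, but R100 and R500 were 1.16 and 1.29 times the parental value. The Gata sum and the whole lists were thus both higher in R100 and R500 and lower in R4000, while in R1000 the list was near the parental length. The part of the list length in the values below was not tested.

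By gene, 5 of 6 had more covered bases in R100 than in the parental line, against 32.8% of protein-coding genes, and 5 of 6 in R500, against 25.7%. In R1000, 1 gene had more, against 11.5% of protein-coding genes, and 2 had fewer, against 7.48%. In R4000, 1 gene had more, against 8.57%, and 2 had fewer, against 9.59%. The gene with more bases was Gata2 in both lines, and those with fewer were Gata3 and Gata4.

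**Figure D2:**
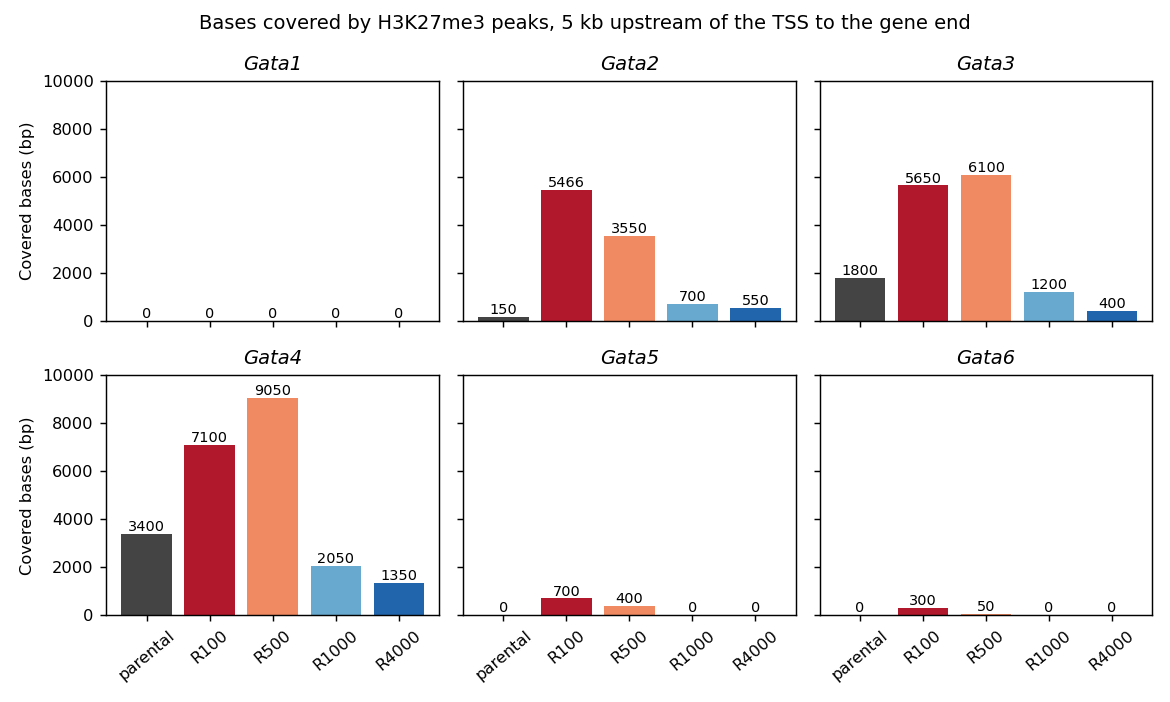
Bases covered by H3K27me3 peaks (bp, bars from 0) for each Gata gene in the 5 lines, 1 list per line and so without error bars. Gata4 has the highest bar in each line, with 9050 bp in R500, and Gata1 is at 0 throughout.

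Gata2, the factor of blood stem and progenitor cells, lies on chromosome 6 from 88143885 to 88157024 on the plus strand of mm9 (ENSMUSG00000015053.8). Peaks covered 150 bp of it in the parental line, 5466 bp for R100, 3550 bp for R500, 700 bp for R1000 and 550 bp for R4000. The parental value is the lowest of the 5 and comes from a single peak, and R100 and R500 are far above the other lines. This is 0.827% of the 18.1 kb window in the parental line, 30.1% for R100, 19.6% for R500, 3.86% for R1000 and 3.03% for R4000. In all 4 resistant lines, Gata2 was the member with the largest covered share of its window. R100 held 17 peaks with a median width of 350 bp, R500 held 16 with a median of 150 bp, and R1000 and R4000 held 4 each. The ratios to the parental line, 36.4 for R100, 23.7 for R500, 4.67 for R1000 and 3.67 for R4000, rest on that 1 parental peak and would change much with 1 more. With only peaks at least 500 bp wide, Gata2 had no covered base in the parental line, R1000 or R4000, and 3200 and 1550 bp in R100 and R500. Of the 2889 protein-coding genes covered in the parental line, 13.6% had more covered bases in all 4 resistant lines, as Gata2 did.

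The parental peak of Gata2 lies 466 to 615 bp downstream of the first TSS, in an intron, and was covered whole in R100, R500 and R1000. R4000 had a peak of 200 bp just upstream of it, at 166 to 365 bp, and none on it. The sequence is printed because it is the only stretch of Gata2 covered in 4 lines, with CG dinucleotides in capitals and on the strand of the gene.
Gata2 intron, mm9 chr6:88144351-88144500, plus strand: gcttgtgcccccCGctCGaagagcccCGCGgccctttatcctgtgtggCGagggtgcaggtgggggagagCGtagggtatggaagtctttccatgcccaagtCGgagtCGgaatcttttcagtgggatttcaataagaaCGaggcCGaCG
It holds 11 CG dinucleotides in 150 bases, or 73.3 per kb, and lies wholly within a CpG island. The Gata2 gene also has a second TSS, 4773 bp downstream of the first. Within 2 kb of this second TSS, peaks covered no base in the parental line, 1443 bp for R100, 1450 bp for R500, 350 bp for R1000 and 150 bp for R4000. Around the first TSS the values were 150, 1650, 1200, 350 and 200 bp. The R500 peak of 950 bp, the widest of the line in Gata2, ran from 4216 to 5165 bp and so across the second TSS. It covered all 300 bases of the second RefSeq promoter, where R100 covered 7 and the other lines none. Upstream, R100 had a peak of 650 bp at -4484 to -3835 bp from the first TSS, and another that crossed the edge of the window. R500 had 3 peaks of 100 to 150 bp between -4534 and -3585 bp, and R4000 had 1 of 100 bp. Closer to the TSS, R100 had a peak of 400 bp at -484 to -85 bp. In the same stretch R500 had peaks of 150 and 100 bp.

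Gata3, which directs T-cell commitment and the differentiation of T helper 2 cells, lies on chromosome 2 from 9778705 to 9811661 on the minus strand (ENSMUSG00000015619.9). Peaks covered 1800 bp of it in the parental line, 5650 bp for R100, 6100 bp for R500, 1200 bp for R1000 and 400 bp for R4000. R100 and R500 were above the parental line, by 3.14 and 3.39 times, and R1000 and R4000 were below it, at 0.667 and 0.222 times. Among the members, Gata3 had the lowest ratio in R4000. Of the protein-coding genes covered in the parental line, 26.1% had this order, with more bases in R100 and R500 and fewer in R1000 and R4000, and Gata4 had it too.

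Most covered bases of Gata3 lay in 3 stretches. The first follows the first TSS. There the parental line had its widest peak, 900 bp from 11 to 910 bp, R100 had peaks of 250 and 600 bp, R500 had 1 peak of 1200 bp, R1000 had peaks of 50 and 100 bp, and R4000 had none. Within 2 kb of this TSS the covered bases were 900 in the parental line, 1050 for R100, 1300 for R500, 150 for R1000 and 0 for R4000. The next stretch lies about 6 to 8 kb into the gene, where the parental line had 3 peaks of 50 to 100 bp. R100 and R500 had their widest Gata3 peaks here, 1400 bp from 6411 to 7810 and 1500 bp from 6161 to 7660. R1000 had peaks of 100 bp at 7061 to 7160, 200 bp at 6611 to 6810 and 150 bp at 6261 to 6410. R4000 had a peak of 200 bp at 6161 to 6360. The last stretch surrounds the second TSS, 11434 bp from the first, where the covered bases within 2 kb were 600 in the parental line, 2074 for R100, 1900 for R500, 450 for R1000 and 200 for R4000. In R4000, Gata3 was thus covered in the gene body and not at its first TSS.

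One stretch of Gata3 was covered in all 5 lines, 150 bp at 11811 to 11960 bp from the first TSS and within an intron. It is printed within the 200 bp that at least 4 lines covered, as the stretch of Gata3 found in the most lines, with CG dinucleotides in capitals and on the strand of the gene.
Gata3 intron, mm9 chr2:9799651-9799850, minus strand: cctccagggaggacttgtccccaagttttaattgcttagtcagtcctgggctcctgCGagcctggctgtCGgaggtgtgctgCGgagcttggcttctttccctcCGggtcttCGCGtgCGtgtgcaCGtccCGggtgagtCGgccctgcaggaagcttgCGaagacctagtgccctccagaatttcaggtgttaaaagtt
It holds 11 CG dinucleotides in 200 bases. Gm13256, a noncoding transcript of the opposite strand, spans this stretch and the second TSS. The RefSeq promoter of Gata3 printed above, just before this stretch, was covered over 23 bp in R500 and not in the other 4 lines. At the first Gata2 promoter the covered bases were 166 for R100, 100 for R500 and 0 in the other lines. The annotation places 3 other genes over the window of Gata3, namely Gm13256, 4930412O13Rik and 9230102O04Rik. Without the bases of these genes, Gata3 was covered over 483, 1815, 1665, 83 and 0 bp in the order of the lines, so most of the covered bases cannot be ascribed to Gata3 alone.

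Gata4, a factor of heart muscle and endoderm, lies on chromosome 14 from 63817759 to 63890529 on the minus strand (ENSMUSG00000021944.8). Peaks covered 3400 bp of it in the parental line, 7100 bp for R100, 9050 bp for R500, 2050 bp for R1000 and 1350 bp for R4000, the most of any member in each line. R500 was the highest, and R1000 and R4000 were below the parental line. The ratios to the parental line were 2.09, 2.66, 0.603 and 0.397. Gata4 has the longest window, 77.8 kb, and the covered shares of 4.37%, 9.13%, 11.6%, 2.64% and 1.74% were close to those of Gata3 in the parental line and lower than those of Gata2 and Gata3 in R100 and R500. By covered bases Gata4 was number 33 of the 22367 protein-coding genes in the parental line, 34 for R100, 15 for R500, 102 for R1000 and 120 for R4000. By covered bases per kb of window its place was 365, 626, 470, 683 and 673. Gata2, by the same measure per kb, was number 1208 in the parental line, 134 for R100, 253 for R500, 496 for R1000 and 418 for R4000.

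Gata4 held the most peaks of any member in each line. The parental line had 21 with a median width of 100 bp, R100 had 24 and R500 had 32 with a median of 200 bp each, and R1000 and R4000 had 14 and 15 with a median of 100 bp. The median width over each whole list was 100 bp. The Gata4 peaks gathered around the second TSS, 26421 bp downstream of the first, where 3 of the 7 annotated coding transcripts begin. The 20001 bp within 10 kb of this TSS make up 25.7% of the window and held 85.3% of the covered bases in the parental line, 73.2% for R100, 65.2% for R500, 82.9% for R1000 and 70.4% for R4000. This segment was chosen after the peaks had been seen. R100 had there the widest peak of any Gata gene, 2350 bp from 24929 to 27278 bp, which crosses the second TSS. R500 had 3 peaks of 300 to 550 bp over this stretch. Around the first TSS, within 2 kb, the values were 250 bp in the parental line, 472 bp for R100, 1172 bp for R500, 0 bp for R1000 and 122 bp for R4000. The last TSS, 58085 bp downstream, had no covered base within 2 kb in any line. Stretches covered in all 5 lines were 100 bp at 25129 to 25228 bp and 50 bp at 22979 to 23028 bp, both in CpG islands.

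**Figure D3:**
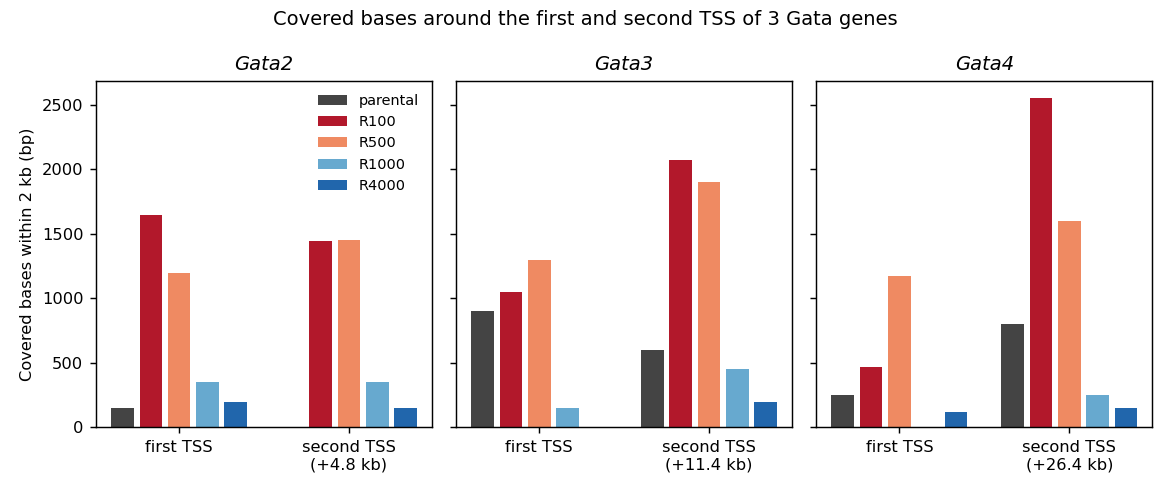
Bases covered within 2 kb of the first and second TSS of Gata2, Gata3 and Gata4 (bp, bars from 0) in the 5 lines. At the second TSS of Gata4 the bars run from 150 bp in R4000 to 2558 bp in R100, and at the second TSS of Gata2 the parental line has no covered base.

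Gata5 and Gata6, the other heart and endoderm factors, were covered in R100 and R500 and in no other line, a pattern found for 5.64% of protein-coding genes. Gata5, on chromosome 2 from 180059838 to 180069404 on the minus strand (ENSMUSG00000015627.4), was covered over 700 bp in R100 and 400 bp in R500, in 5 and 4 peaks. The peaks of both lines lay between -2696 and 1853 bp from the TSS, but no base was covered in both. Apart from 11 bp in R500, all these bases also lie within Gm14318, a coding gene annotated on the opposite strand. Gata6, on chromosome 18 from 11052508 to 11085633 on the plus strand (ENSMUSG00000005836.8), was covered over 300 bp in R100, by a peak of 200 bp that began 343 bp downstream of the TSS and 1 of 100 bp that began at 1293 bp. In R500 its only peak was 50 bp wide, the smallest width a peak can have, and began at -2257 bp, within the lincRNA 1010001N08Rik. Islands made up 20.1% of the Gata6 window, more than the 12.4% of the much more widely covered Gata4. Values of this size in Gata5 and Gata6 are a few steps of 50 bp and give no order between R100 and R500. Outside R100 and R500, the nearest peak to the Gata6 window was 125 to 132 kb away, and to the Gata5 window 48.1 to 97.8 kb away.

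Gata1, the main factor of red cells and megakaryocytes, had no covered base in any line, as had 57.2% of protein-coding genes. It lies on chromosome X from 7536386 to 7555197 on the minus strand (ENSMUSG00000031162.8). The nearest peak was 242 kb from its window in the parental line, 74.7 kb for R100, 162 kb in both R500 and R1000 and 148 kb for R4000. Of the 932 protein-coding genes on chromosome X, 88.4% had no covered base in any line, and the share covered was at most 8.15%, in R100. Its window also holds no CpG island. Among protein-coding genes with a RefSeq promoter of 0 to 4 CG dinucleotides, as at Gata1, 85.4% were covered in no line, against 36.2% of those with 20 or more. The part of the chromosome and of the CG content in the Gata1 values was not tested.

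**Figure D4:**
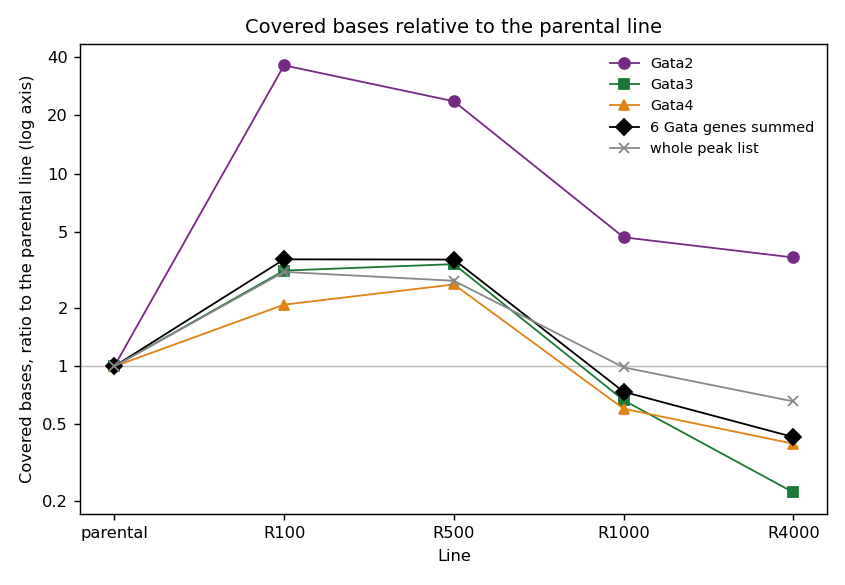
Covered bases relative to the parental line (log axis) for Gata2, Gata3, Gata4, the 6 Gata genes summed and the whole peak list, by line. Gata2 lies above 1 in all 4 resistant lines, up to 36.4 in R100, while Gata3 and Gata4 lie above 1 in R100 and R500 and below 1 in R1000 and R4000. Gata1, Gata5 and Gata6 have no parental value and are not drawn.

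Summed over the 6 genes, covered bases lay mostly in introns and in CpG islands and seldom upstream. Gata5 differed, with 63.6% of the bases covered in any line upstream of its TSS and 18.2% in introns. Upstream here means before the first TSS, so bases before a later TSS of the same gene were counted as intron or exon. In Gata4, 44.6% of the bases covered in any line lay in islands. An island was taken as any run of windows of 200 bp with at least 50% GC and at least 0.6 times the CG dinucleotides that the base composition would give. Islands made up 16.7% of the 6 windows, and 55.5% of the bases covered in any line lay in them. By line, the share in islands was 65.3% in the parental line, 63.1% for R100, 57.9% for R500, 65.2% for R1000 and 70.4% for R4000. The more lines covered a base, the more often it lay in an island, with 10.3% of the bases covered in no line, 46.4% of those covered in 1 line, 61.8% in 2 lines and 75.7% in 3 or more. Gata2 departs from this order, with 62.8% in 1 line and 50.1% in 2 lines. CG dinucleotides numbered 16.1 per kb in bases covered in no line and 47.2 per kb in those covered in 3 or more lines. Upstream of the first TSS lay 14.3% of the window bases, but none of the covered bases in the parental line and R1000, 9.39% for R100, 5.85% for R500 and 4.35% for R4000. Introns made up 76.2% of the windows and 82.3% of the bases covered in any line, and exons 9.58% and 9.79%.

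**Figure D5:**
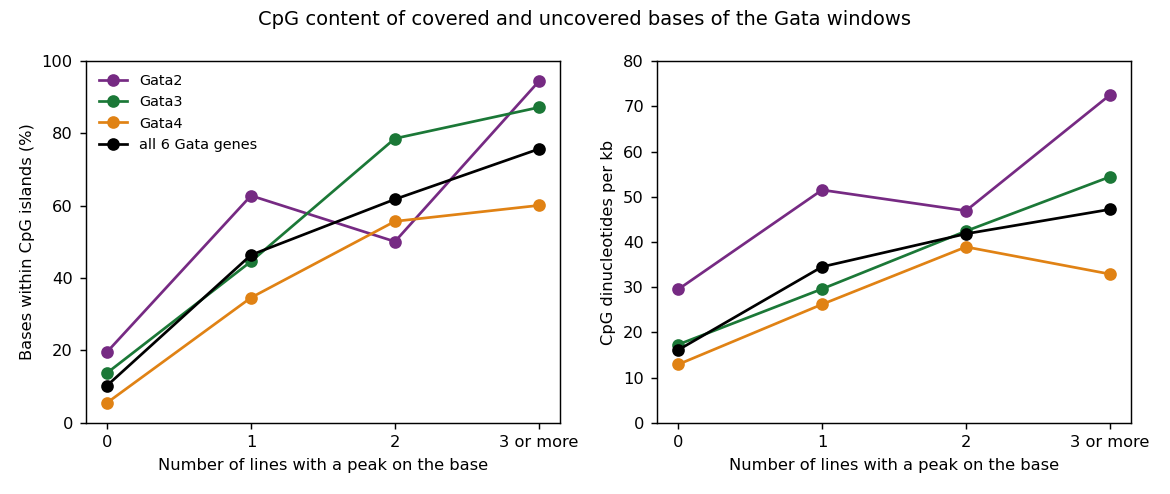
Share of bases within CpG islands (left, %) and CG dinucleotides per kb (right) among bases of the Gata windows covered in 0, 1, 2 or at least 3 lines, for Gata2, Gata3, Gata4 and all 6 genes. The share in islands for all 6 genes goes from 10.3% to 75.7%, while for Gata4 the CG count per kb is lower with 3 or more lines (32.9) than with 2 (38.9).

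Where the peaks lay was compared across the lines over the 6 windows. Of the 5350 bp covered in the parental line, R100 covered 67.3%, R500 covered 74.8%, R1000 covered 30.8% and R4000 covered 14.0%. In the other direction, the parental line covered 18.7% of the R100 bases, 20.9% of the R500 bases, 41.8% of the R1000 bases and 32.6% of the R4000 bases. R100 and R500 had 10350 bp in common, 53.9% of the R100 bases and 54.0% of the R500 bases. R1000 and R4000 had 550 bp in common, 13.9% and 23.9% of their bases, so most of their exact covered bases differed within the same 3 genes. In both lines, however, most covered bases of Gata4 lay within 10 kb of its second TSS. Of the R4000 bases, 67.4% were covered in R100 and 76.1% in R500, and of the R1000 bases 59.5% and 63.3%. In R100 or R500 and in no other line lay 20916 of the 29966 bp covered in any line. In Gata3 and Gata4, 300 bp were covered in all 5 lines. The whole lists of R100 and R500 were 3.09 and 2.78 times the parental length. The shared bases were not counted over the whole lists, so whether these shares are particular to the Gata genes is not known. Having a covered base in all 5 lines, as Gata2, Gata3 and Gata4 had, was found for 6.93% of protein-coding genes.

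The genes with the most similar covered bases over the 5 lines were sought among protein-coding genes, by the sum of absolute differences over the sum of both genes (Bray-Curtis distance, 0 where the values are equal). For Gata2 these were Cntn2 (0.0683), Cdh23 (0.0755) and Hoxb6 (0.0873). Hoxb6, like Gata2, was lowest in the parental line (50 bp) and highest in R100 (4600 bp). The nearer Cntn2 and Cdh23 were also highest in R100 but lowest in R4000 (450 bp each). For Gata3 they were Tnfrsf1a (0.0568), Pax6 (0.0755) and Pax2 (0.0761), and for Gata4 Hoxc9 (0.0647), Lhx4 (0.0745) and Egflam (0.0782). For Gata5 the overlapping Gm14318 had a distance of 0, followed by Socs3 (0.0222) and Ptger4 (0.0233), both at 0 in the parental line, R1000 and R4000. Gata6 and Gata1 had too few covered bases for this comparison. These distances compare 5 values per gene and ignore where the peaks lie.

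Genes that work with GATA factors were looked at as lists of 7 to 9 genes. Their counts stand beside 12.9%, 34.3%, 27.2%, 16.1% and 14.0% of protein-coding genes covered in the order of the lines, and several counts are near these shares. Of 9 cofactors and partners in blood, the parental line covered 1, R100 covered 5, R500 covered 4 and R1000 and R4000 covered 3 each. The 1 parental gene was Tal1, a partner of Gata1 in red cells, with 2550 bp in the parental line, 5600 bp for R100, 6150 bp for R500, 3550 bp for R1000 and 3900 bp for R4000. Unlike Gata3 and Gata4, Tal1 had more covered bases than the parental line in all 4 resistant lines. Lmo2, the bridging protein of the same complex, was at 0 bp in the parental line, and had 1150 bp for R100, 1500 bp for R500, 250 bp for R1000 and 350 bp for R4000. Lyl1, a close relative of Tal1, had 0, 450, 400, 150 and 150 bp in the order of the lines. Zfpm1 and Zfpm2, which encode the FOG cofactors, were covered in no line, nor were Klf1 and Ldb1.

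Of 7 heart and endoderm partners of Gata4, Gata5 and Gata6, the parental line covered 1, R100 covered 6, R500 covered 3, R1000 covered 2 and R4000 covered 1. Nkx2-5, a heart homeobox gene, had 1100 bp in the parental line, 3800 bp for R100, 4300 bp for R500, 1792 bp for R1000 and 750 bp for R4000. Of the 8 other genes with GATA-type zinc fingers, such as Mta3 and Gatad2a, the parental line covered 1, R100 covered 4, R500 covered 3, R1000 covered 1 and R4000 none. None of these genes exceeded 350 bp in any line. Of 9 genes on which Gata1, Gata2 or Gata3 act, the parental line covered 2, R100 covered 3, R500 and R1000 covered 1 each and R4000 covered 2. Epor, the erythropoietin receptor gene, was the only gene of this list covered in all 5 lines, with 100, 1200, 400, 150 and 200 bp. The globin genes Hbb-b1 and Hba-a1 and the cytokine gene Il4 were covered in no line.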

How the data were processed

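H3K27me3 ChIP-seq peak lists of 5 mouse lymphoma lines were used. RRBS was not analysed here. The authors compared immunoprecipitated with input reads by a Poisson test along the genome and deposited peak positions only, in base pairs with no count or score. Bowtie and mm9 are named in the submitters' processing notes. The study had 2 ChIP-seq replicates per line. Whether a list pools them, and the threshold of the lists, are not given in the sources used here. The minimum of 150 bp tried below follows the study's criterion for promoters, 3 bins of 50 bp. Starts are 1 above a multiple of 50 and ends are multiples of 50, so positions were read as 1-based. R100 and R500 list each peak 2 times, and distinct peaks were counted. All peaks on chromosomes 1 to 19, X and Y lay within the NCBIM37 lengths.

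Covered bases per gene came from Python 3.11.15, numpy 2.4.6, scipy 1.17.1 and matplotlib 3.10.9 for all genes of GENCODE on NCBIM37, and simulated peaks served as a check, in which 0 of 1000 windows differed from counting each base. TSSs of coding transcripts within 1000 bp were grouped. The members and lists were chosen with earlier results of these data known. A few list genes are not reported here and were left out of the counts. By rule, names were those of the 6 members, of list genes with a covered base, of which some were picked, of a few list genes covered in no line (named after their values were seen), and of the 3 genes most alike each member with at least 500 covered bp over the lines. Sequences were to be those of members with a region covered in at least 4 lines. Of 7 such regions in Gata2 and Gata3, 2 are shown, the 5 of Gata4, which had no RefSeq entry, are not, and the promoters of Gata1 and Gata5 were added after their values were seen. Alternatives were other peak widths, joined peaks, equal lists, other windows, a minimum of 150 bp, scaling to the list, and leaving out Gata4.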

Additional observations from a re-analysis of the deposited data

Results flagged for a closer look

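At Gata3 the lines differed from the parental line in opposite directions. The covered bases, less those of the parental line, came to 3850 bp for R100 and 4300 bp for R500, but to -600 bp for R1000 and -1400 bp for R4000. Gata4 did the same, with 3700 bp for R100, 5650 bp for R500, -1350 bp for R1000 and -2050 bp for R4000. Over the 6 Gata genes the differences were 13866, 13800, -1400 and -3050 bp in the same order. With 1 list per line, the difference between R100 and R500 on one side and R1000 and R4000 on the other was not tested. The whole lists were 3.09, 2.78, 0.988 and 0.658 times the parental length in the same order. In R1000 the list was thus near the parental length, while Gata3, Gata4 and the sum were below the parental line. The part of the list length in these values was not tested.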

How the results depend on the processing

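The 24 comparisons of a Gata gene in a resistant line with the parental line were repeated under 7 other choices of peaks and windows. None was reversed, although up to 7 lost or gained a difference. Those of Gata1 in every line, and of Gata5 and Gata6 in R1000 and R4000, were 0 bp against 0 bp throughout. They had no direction to keep. All the others kept their direction with peaks within 1000 bp joined and with the window extended 5 kb beyond the gene end. With only peaks at least 500 bp wide, 3 Gata genes were covered in R100, 3 in R500 and 0 in R1000 and R4000. The parental count under this filter was 2. The ratios of summed covered bases to the parental line were 5.82, 5.58, 0 and 0 for R100 to R4000. In the 5 kb upstream alone, the parental line covered 0 genes, R100 covered 3, R500 covered 5, R1000 covered 0 and R4000 covered 1. The higher count in R500 than in R100 rests on 21 bp in Gata4 and 50 bp in Gata6. No ratio could be given for this window. In R500 the count was 4 genes with equal lists and within 2 kb of the first TSS. It was also 4 without the bases of other genes and with a minimum of 150 bp. In R100 the count was 4 without the bases of other genes. The share of all protein-coding genes was not counted under these other choices, so the counts have no background to be read against. Joining peaks gave ratios of 2.84 in R100 and 2.80 in R500. Within 2 kb of the first TSS the ratios were 0.385 in R1000 and 0.248 in R4000. Per Mb covered in the list they were 1.16 in R100, 1.29 in R500 and 0.654 in R4000. Without Gata4 they were 6.21 in R100, 5.18 in R500 and 0.974 in R1000. In R1000, Gata3 too was below the parental line, by 600 bp, but Gata2 was 550 bp above it. These nearly cancelled in the sum without Gata4. The causes were not tested. No paired analysis was possible because each line has 1 list. The unknown depth limits every comparison of covered bases between lines.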
